A study of Mus musculus with 31 samples.

Results

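The RNA of mouse embryonic stem (ES) cells without Srap1 was described from 1 deposited table of transcribed loci. ES cells are pluripotent cells grown from the early embryo. Srap1, also known as Hmces, belongs to a family of proteins that bind DNA through their SRAP domain. The loci were chosen by position alone, as every locus on the 19 autosomes, which left 139204 of the 143073 loci in the table. All RNA tables of the series together list 179682 loci when the knockout is counted once. Of the other loci 3658 lay on X, 86 on Y, 125 on unplaced sequence and 0 on the mitochondrial chromosome. The series holds 31 samples, and 2 of them are deposits of knockout RNA. The 2 tables hold the same values at every locus, so they counted as 1 sample and n = 1 throughout. No value has a replicate error, no test between groups was made, and the table was not compared with wild-type RNA.

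Per the labels, the cells were of the background 129SVxC57/BL6 with the genotype Srap1 KO, and they had been derived together with wild-type cells. They grew on gelatin, with leukemia inhibitory factor, inhibitors of GSK3β and Mek, and ascorbic acid. The labels give neither the knockout allele nor the number of clones. Total RNA was depleted of ribosomal RNA and was not selected for poly(A) tails. Such a library can hold messenger RNA, unspliced precursors, long noncoding RNA and small structural RNA. A locus is a stretch of genome on which a program places overlapping RNA fragments, so that 1 gene can give several loci, and an intron can hold loci of its own.

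No gene name stands beside any locus, and 0 of the IDs matched a gene symbol. No annotation of mm9, the build of its positions, was used here, so loci are given by chromosome, start and end as the file lists them, and no gene, exon or intron is assigned. The level of Srap1 and of ES cell markers was therefore not examined, and genotype and cell type rest on the labels. Levels are in FPKM, by name the number of fragments a transcript gives per kilobase of its length, scaled by library size. Which length the values were divided by was not examined. FPKM per fragment did not scale plainly with locus width, as given below, so values of narrow and wide loci are not directly comparable. Each value comes with a lower and an upper bound. If the upper bound lies 2 standard deviations of a Poisson count above the value, the bounds imply a number of fragments for each locus. These numbers sum to 10515666 on the autosomes. The bounds do not cover the spread between libraries, and what they hold beyond counting error was not examined.

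Most loci were weakly transcribed. The median level was 4.48 FPKM, with quartiles of 2.58 and 11.1 FPKM. Of all loci, 74880 (53.8%) had less than 5 FPKM, and 350 (0.251%) had less than 1 FPKM. The commonest class was 2 to 5 FPKM, with 57726 loci, or 41.5% of all. At the upper end, 21008 loci (15.1%) had at least 20 FPKM and 4995 (3.59%) at least 100 FPKM. The distribution had a long upper tail, which the mean of 74.9 FPKM reflects. The 99th percentile was 500 FPKM and the highest value 297557 FPKM. The lowest value was 0.314 FPKM, with bounds of 0.0952 and 0.533 FPKM, at a locus of 2562 bases on chromosome 15 (76682512 to 76685074).

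**Figure D1:**
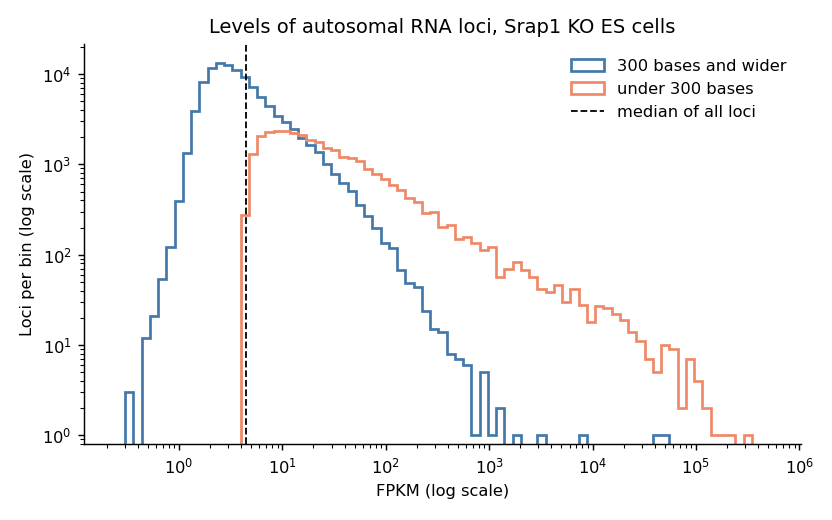
Number of autosomal loci (vertical axis, log scale) by level in FPKM (horizontal axis, log scale), drawn separately for loci of at least 300 bases and narrower loci, with the median of all loci at 4.48 FPKM as a dashed line. Loci of at least 300 bases peak at low levels, and 841 of the 849 loci with at least 1000 FPKM are narrower than 300 bases.

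The upper tail was made of narrow loci. Of the 849 loci with at least 1000 FPKM, 841 were under 300 bases wide and 8 were wider. Loci under 300 bases made up 22.8% of all loci and 92.0% of the summed FPKM, yet only 5.44% of the implied fragments. Among the 107422 loci of at least 300 bases the median was 3.39 FPKM and the 99th percentile 58.1 FPKM. Their highest value was 46278 FPKM.

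Fragments were spread unevenly over the loci. The median locus held 18.9 implied fragments, with quartiles of 13.0 and 40.0. The 1st percentile was 9.11, so that nearly all listed loci had 9 implied fragments or more. Between 9 and 20 implied fragments lay 50.4% of loci, 11.5% had at least 100, and 1257 loci had at least 1000. As few as 4224 loci (3.03%) held 50% of all implied fragments. Loci with at least 5 FPKM held 77.8% of them, and those with at least 100 FPKM held 14.9%.

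The deposited bounds were wide at the typical locus. The upper bound exceeded the value by 45.9% at the median, with quartiles of 31.6% and 55.5%. A single low level is thus known only to about that fraction. At 825 loci (0.593%) the lower bound was 0. The implied number failed at 744 loci, where it came out under 1, so the bounds there were wider than counting error alone gives. Those loci had a median level of 4.52 FPKM and a median width of 2134 bases, and they are left out wherever a value per fragment is given.

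FPKM differed between width classes, and the direction changed with width. Nearly all listed loci had 9 or more implied fragments. Up to 1000 bases, 1 fragment was worth more FPKM in narrower loci, as given below. Narrow loci could thus hardly be listed at low FPKM, and the fall up to 1000 bases does not measure strength of transcription. Widths, taken as end minus start, ran from 50 to 538146 bases, with a median of 487 and quartiles of 314 and 928 bases. The 1598 loci under 100 bases had a median of 989 FPKM, with a lower quartile of 494 FPKM. The 30184 loci of 100 to under 300 bases had a median of 17.3 FPKM. The lowest median, 3.02 FPKM, was that of the 74976 loci of 300 to under 1000 bases, which are the most numerous class with 53.9% of loci. From there the medians went up again. They were 3.53 FPKM for 17974 loci of 1000 to under 3000 bases and 8.77 FPKM for 9228 loci of 3000 to under 10000 bases. The 3936 loci of 10000 to under 30000 bases had a median of 12.5 FPKM, and the 1308 wider ones 12.4 FPKM. These last classes had nearly the same quartiles, 7.32 and 22.3 FPKM against 6.83 and 21.8 FPKM.

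The share of strong and weak loci followed the same order. All loci under 100 bases (100%) reached 100 FPKM, and 9.91% of those of 100 to under 300 bases did. The lowest level listed under 100 bases was 253 FPKM. With 9 or more implied fragments at nearly all listed loci, so narrow a locus could hardly miss 100 FPKM. That share carries no information on strength. In the class of 300 to under 1000 bases 0.161% of loci reached 100 FPKM, the lowest share of all, and 79.7% had less than 5 FPKM. Among loci of 1000 to under 3000 bases 64.0% were under 5 FPKM. In the 3 widest classes 26.1%, 12.1% and 14.2% were under 5 FPKM. Across all 139204 loci Pearson's correlation of log2(FPKM + 1) with log2 width was -0.23 and Spearman's rho -0.38. Over the 107422 loci of at least 300 bases they were 0.42 and 0.12. The points share 1 library and are not independent, so the correlations are descriptions. The negative ones include loci under 300 bases, whose FPKM could hardly be low.

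**Figure D2:**
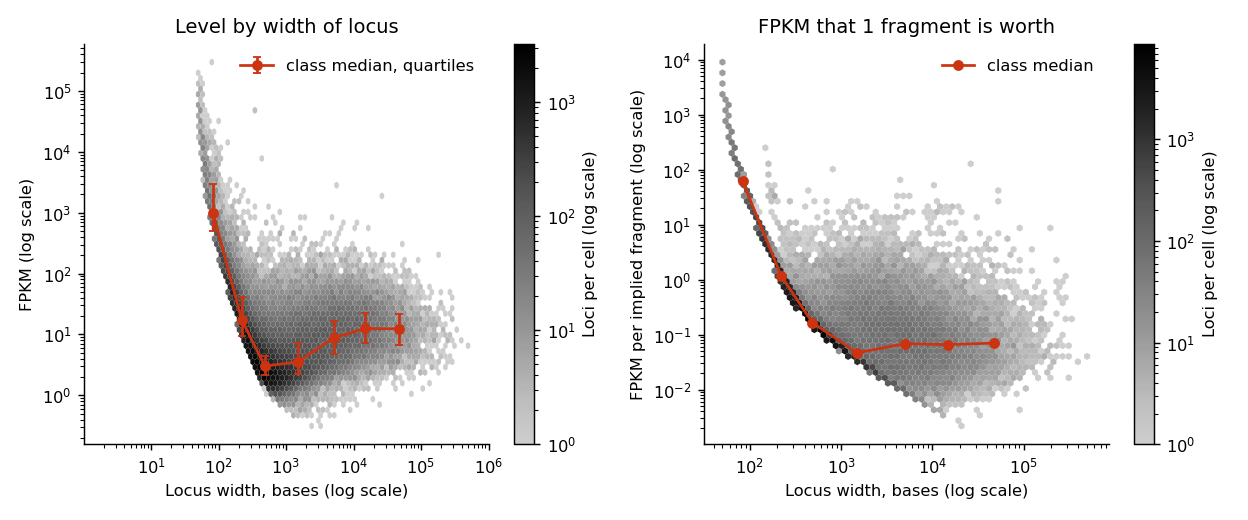
Left, FPKM against locus width in bases, both on log scales, with shading for the number of loci and red points for the median and quartiles of each width class. Right, FPKM per implied fragment against width, with class medians. The class medians of level fall from 989 FPKM to 3.02 FPKM at 300 to under 1000 bases and are higher again in wider loci, while FPKM per fragment falls from 61.8 to 0.0464 at 1000 to under 3000 bases and is 0.0657 to 0.0699 beyond.

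The fragment numbers behind these levels followed another order. The median number was 13.0 implied fragments in both classes under 300 bases and 18.0 at 300 to under 1000 bases. It was 65.9 at 1000 to under 3000 bases, 121 at 3000 to under 10000 bases, 173 at 10000 to under 30000 bases and 141 in the widest loci. High FPKM in narrow loci came with few implied fragments. In the 3 classes from 100 bases to under 3000 bases, 1 implied fragment was worth a median of 1.15, 0.164 and 0.0464 FPKM in turn. Under 100 bases it was worth 61.8 FPKM, and from 3000 bases 0.0657 to 0.0699 FPKM.

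The worth of 1 fragment changed most steeply among the narrowest loci. At exactly 50 bases, the smallest width, 1 fragment was worth 8617 FPKM (9 loci). At 55 bases it was worth 1380 FPKM (18 loci), at 75 bases 104 FPKM (33 loci) and at 100 bases 24.3 FPKM (54 loci). The figure was 1.58 FPKM at 200 bases (161 loci) and 0.149 FPKM at 500 bases (156 loci). The lowest level listed at a width followed these steps. It was 85520 FPKM at 50 bases, 242 FPKM at 100 bases, 15.7 FPKM at 200 bases, 4.41 FPKM at 300 bases and 1.49 FPKM at 500 bases. FPKM of narrow loci is therefore not on the same footing as that of wider ones, and levels were ranked from 300 bases upwards. That minimum lessens the difference and does not remove it, since 1 fragment was worth 0.445 FPKM at 300 bases and 0.149 FPKM at 500 bases.

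Around the minimum width of 300 bases the medians were close and the maxima were not. The 2038 loci of 290 to under 300 bases had a median of 6.12 FPKM and a maximum of 906 FPKM. The 2137 loci of 300 to under 310 bases had a median of 5.49 FPKM and a maximum of 271 FPKM. Both medians lay not far above 4.41 FPKM, the lowest level listed at exactly 300 bases, so their closeness says little on the choice of minimum.

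Fragments were also set against level and width together. FPKM divides by a length of the assembled transcript, which can differ from locus width, as where introns are removed. That length was not examined here. Per FPKM and per kb of width, the median was 0.195 implied fragments under 100 bases and 3.93 at 100 to under 300 bases. It was 12.7 at 300 to under 1000 bases and 18.2 at 1000 to under 3000 bases. It was 2.68 at 3000 to under 10000 bases, 0.976 at 10000 to under 30000 bases and 0.257 in the widest loci. The ratio was thus low at both ends of the range of widths, and lowest under 100 bases.

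Among loci of at least 300 bases the strongest 4 stood far above the rest and held 6.58% of all implied fragments. The highest was on chromosome 14 (51427117 to 51427439), 322 bases wide, with 46278 FPKM and bounds of 46014 and 46541 FPKM. The second was on chromosome 9 (78023082 to 78023432), 350 bases wide, with 44066 FPKM and bounds of 43833 and 44299 FPKM. Their bounds did not overlap, but both lay more than 5 times above the third. That one was on chromosome 4 (43505478 to 43505922), 444 bases wide, with 8575 FPKM and bounds of 8495 and 8655 FPKM. The fourth, on chromosome 17 (39979939 to 39985777), was 5838 bases wide with 3046 FPKM and bounds of 3037 and 3056 FPKM.

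By fragments the order was different. The chromosome 17 locus held 378757 implied fragments, 3.6% of the autosomal total and 45.2% of all on its chromosome. The chromosome 9 locus held 143441, that on chromosome 14 held 123660 and that on chromosome 4 held 45980. None of these 4 overlapped another listed locus. Within 50 kb of the chromosome 17 locus no other locus was listed. The other loci within 50 kb numbered 34 on chromosome 14, 17 on chromosome 9 and 17 on chromosome 4, with median levels of 4.88, 3.46 and 12.6 FPKM. The median of all loci was 4.48 FPKM. Next by fragments was a wide locus on chromosome 1 (45368378 to 45406524), with 25388 implied fragments over 38146 bases and 213 FPKM.

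The other 6 of the highest 10 had levels between 902 and 1722 FPKM and differed widely in precision. On chromosome 5 a locus of 366 bases (147072566 to 147072932) had 1337 FPKM, with bounds of 1299 and 1375 FPKM. It lay inside a locus of 10185 bases with 3.44 FPKM. On chromosome 16 a locus of 567 bases (57391228 to 57391795) had 1189 FPKM, with bounds of 1165 and 1213 FPKM, and lay inside one of 288916 bases with 17.7 FPKM. Both thus lay inside a wider locus with a far lower level, although that on chromosome 16 was above the median of 12.4 FPKM of its width class. The second locus on chromosome 16 (35573353 to 35573679), 326 bases wide, had 902 FPKM, with bounds of 866 and 937 FPKM.

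The remaining 3 of the 10 had wide bounds, which imply few fragments. The implied numbers hold only if the bounds hold counting error alone, which was not examined at these loci. A locus of 25669 bases on chromosome 15 (58628755 to 58654424) had 1722 FPKM, but its bounds were 767 and 2678 FPKM, with 13.0 implied fragments. There 1 implied fragment was worth 132 FPKM, against a median of 0.0657 FPKM in its width class. A locus of 755 bases on chromosome 4 (9521810 to 9522565) had 1068 FPKM with bounds of 426 and 1710 FPKM, from 11.1 implied fragments. A locus of 1862 bases on chromosome 5 (124215956 to 124217818) had 911 FPKM with bounds of 631 and 1191 FPKM, from 42.4 implied fragments. Their place in the order is uncertain, since their bounds overlapped those of several neighbours. Of the 405 loci of at least 300 bases with at least 100 FPKM, 120 (29.6%) had fewer than 50 implied fragments.

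Among loci of at least 1000 bases the next 5 after those named had 577 to 836 FPKM. A locus of 10716 bases on chromosome 19 (5792478 to 5803194) had 672 FPKM, with bounds of 644 and 700 FPKM and 2318 implied fragments. On chromosome 7 (31409516 to 31411131) a locus of 1615 bases had 824 FPKM, with bounds of 735 and 913 FPKM. On chromosome 14 (79987746 to 79995266) a locus of 7520 bases had 645 FPKM, with bounds of 552 and 739 FPKM. These 3 rested on at least 190 implied fragments each. The other two, on chromosome 2 (128644179 to 128648842, 836 FPKM) and chromosome 4 (145154671 to 145164391, 577 FPKM), had 14.0 and 11 implied fragments. The strongest locus of 30000 bases or more, on chromosome 16 (91729796 to 91782454), had 305 FPKM from 10.1 implied fragments. Of the 5244 loci of at least 10000 bases, 74 had at least 100 FPKM.

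Narrow loci with the highest FPKM differed in the same way. The highest of all, 74 bases on chromosome 10 (11211916 to 11211990), had 297557 FPKM with bounds of 286006 and 309109 FPKM. It rested on 2654 implied fragments. The next 3, all of 50 bases, had 213801 FPKM on chromosome 9 (3494744 to 3494794), 171041 FPKM on chromosome 10 (87146512 to 87146562) and 147095 FPKM on chromosome 7 (96910396 to 96910446). They rested on 25.0, 20 and 16.4 implied fragments. From 100 to under 300 bases the highest was a locus of 131 bases on chromosome 19 (8034268 to 8034399), with 13446 FPKM and 1740 implied fragments.

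The strongest locus of at least 300 bases was above 1000 FPKM on 7 of the 19 autosomes and had a median of 824 FPKM over the 19. The lowest of these maxima was 244 FPKM on chromosome 18 (78012714 to 78022409), with bounds of 240 and 248 FPKM. On chromosome 13 (23830783 to 23831381) it was 507 FPKM, on chromosome 6 (66825043 to 66825847) 504 FPKM and on chromosome 10 (127520365 to 127527429) 531 FPKM. These 4 had narrow bounds, within 3% of the value. On chromosome 11 (86443901 to 86444549) a locus of 648 bases had 891 FPKM, inside one of 36560 bases with 18.8 FPKM. On chromosome 1 (45449146 to 45449953) the maximum was 473 FPKM and on chromosome 12 (86320343 to 86321554) 451 FPKM. On chromosomes 2, 3, 8 and 15 it rested on fewer than 50 implied fragments. That on chromosome 3 (95374848 to 95379524) was 437 FPKM with bounds of 209 and 664 FPKM. That on chromosome 8 (124951559 to 124956756) was 324 FPKM with bounds of 186 and 462 FPKM.

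**Figure D3:**
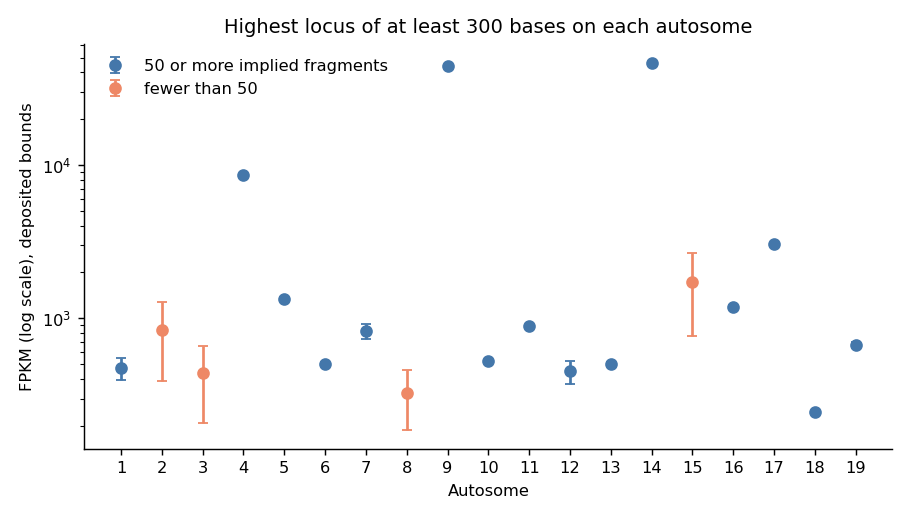
Level in FPKM (log scale) of the strongest locus of at least 300 bases on each autosome, with the deposited lower and upper bounds as bars. The 4 points with fewer than 50 implied fragments (orange) have wide bounds, and chromosomes 9 and 14 reach 44066 and 46278 FPKM.

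Loci covered 255 Mb of the autosomes, or 10.3% of their sequence, with overlapping bases counted once. Here a locus covers all bases from its start to its end, so any introns removed from its transcript are included. The share of sequence with RNA fragments on it was not measured. The length of each autosome was taken as the last base reached by reads of the control IgG library of Srap1 KO DNA, in which antibodies of no set target were used to pull down DNA. These lengths sum to 2472 Mb. The density was 56.3 loci per Mb. Wide loci gave most of the covered sequence. The 5244 loci of at least 10000 bases, 3.77% of all loci, covered 57.4% of it. Loci of 300 to under 1000 bases covered 15.5% of it, and those of 100 to under 300 bases 2.55%.

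Chromosome 11 was the densest autosome on both measures. It held 93.1 loci per Mb and had 16.0% of its sequence covered. Chromosome 3 was the sparsest, with 43.5 loci per Mb and 7.41% covered. The highest value was thus 2.14 times the lowest for loci per Mb and 2.16 times for covered sequence. Chromosome 11 made up 4.93% of the autosomal length and held 8.15% of the loci and 8.45% of the implied fragments.

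After chromosome 11 came chromosome 17 with 69.1 loci per Mb and chromosome 19 with 68.4. Chromosomes 2 and 4 had 64.0 each, chromosome 5 had 63.9 and chromosome 9 had 63.7. Chromosome 7 had 59.3 and chromosome 15 had 57.4. These 9 autosomes, chromosome 11 included, lay above the overall density. Below it were chromosome 8 with 54.6, chromosome 16 with 50.7 and chromosome 10 with 49.7. Chromosome 1 had 47.3, chromosome 18 had 47.1, chromosome 6 had 47.0 and chromosome 12 had 46.3 loci per Mb. Chromosomes 13 and 14, with 45.0 each, were close to chromosome 3. Chromosome 1, the longest, was below the overall density, and chromosome 19, the shortest, above it.

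Covered sequence ranked the autosomes in much the same way. Chromosomes 9, 17 and 19 had 12.1% covered each, chromosome 2 had 11.7%, chromosome 4 had 11.3% and chromosome 5 had 10.8%. With chromosome 11 these 7 lay above the overall share. The others ranged from 7.41% on chromosome 3 to 10.2% on chromosome 8. Over the 19 autosomes the measures had a Pearson's correlation of 0.96 and a Spearman's rho of 0.91, which both come from the same loci. For comparison, X had 22.0 loci per Mb and 4.90% of its sequence covered.

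**Figure D4:**
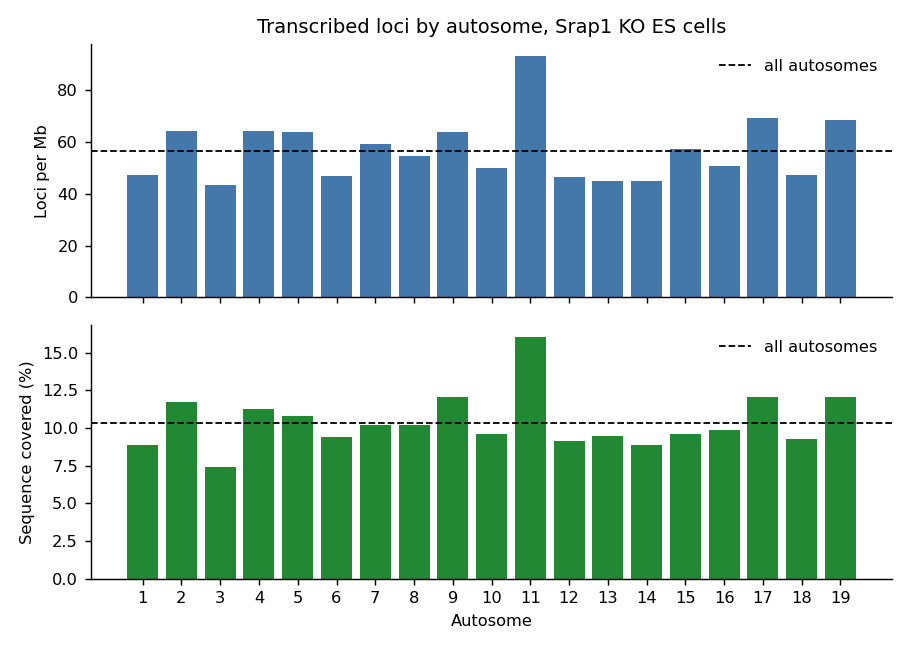
Loci per Mb (top) and percent of sequence covered by loci (bottom) for each autosome, with the value over all autosomes as a dashed line (56.3 loci per Mb and 10.3%). Chromosome 11 is highest on both, at 93.1 loci per Mb and 16.0%, and chromosome 3 lowest.

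Levels differed little between autosomes. The median FPKM ran from 4.02 on chromosome 6 to 4.93 on chromosome 9, and across autosomes it had a Pearson's correlation of -0.03 with loci per Mb. The share of loci under 300 bases ran from 20.9% on chromosome 5 to 25.5% on chromosome 1. The median width ran from 463 bases on chromosome 1 to 510 bases on chromosome 7. Implied fragments per Mb did differ. They were 8790 on chromosome 17, 7290 on chromosome 11 and 5986 on chromosome 9. Without the strongest 4 loci they were 4814 on chromosome 17 and 4830 on chromosome 9, and chromosome 11 was then highest. The lowest was 2796 on chromosome 14, which had been 3784 with its strongest locus.

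Within chromosomes, loci were gathered in part of the sequence. In 2425 bins of 1 Mb from position 3 Mb onwards, the median was 34 loci starting per bin, with quartiles of 3 and 92. No locus started in 398 bins (16.4%), and 710 bins had 5 or fewer. At the other end, 391 bins (16.1%) held 50% of the loci, and 113 bins had at least 200.

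**Figure D5:**
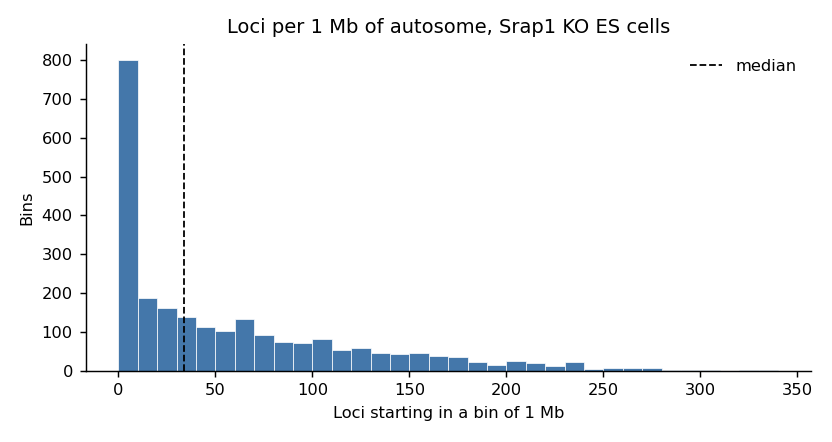
Number of 1 Mb bins (vertical axis) by the number of loci that start in them (horizontal axis), with the median of 34 as a dashed line. The tallest column holds bins with fewer than 10 loci, and the fullest bin has 339.

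The fullest bin was on chromosome 2 (59000001 to 60000000) with 339 loci. It was followed by a bin on chromosome 18 (34000001 to 35000000) with 334 and one on chromosome 1 (120000001 to 121000000) with 333. Loci covered 46.0%, 39.9% and 35.7% of these bins. Their median levels were 3.79, 4.01 and 3.00 FPKM, near or below the 4.48 FPKM of all loci. Low levels were not particular to these bins, since 53.8% of all loci had less than 5 FPKM. In the chromosome 2 bin 48.4% of the loci lay inside another locus, and its strongest locus of at least 300 bases had 35.6 FPKM (59655549 to 59671363). The strongest was 58.5 FPKM in the chromosome 18 bin (34761671 to 34762436) and 27.7 FPKM in the chromosome 1 bin (120573851 to 120581992).

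Long stretches held no locus. There were 447 gaps of at least 1 Mb between loci, which sum to 838 Mb, or 33.9% of the autosomal length. The widest gap, of 7.48 Mb, was on chromosome 7 (39056357 to 46531788). The next were 6.62 Mb on chromosome 14 (107097473 to 113713846) and 6.55 Mb on chromosome 5 (9164952 to 15718706). In the IgG library the chromosome 7 gap had 0.0594 reads per kb of mapping quality at least 30, the chromosome 14 gap 2.03 and the chromosome 5 gap 1.45. Over all gaps it was 2.05 reads per kb. DNA reads were thus placed in the gaps on chromosomes 14 and 5, and few were placed in that on chromosome 7.

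Many loci lay inside another locus. This was so for 36970 loci (26.6%), with a share of 54.1% under 100 bases, 49.1% at 100 to under 300 bases and 24.5% at 300 to under 1000 bases. It was 13.9% at 1000 to under 3000 bases and 4.02% at 3000 to under 10000 bases. Joined where they overlap or touch, the loci formed 102033 separate stretches, of which 94112 (92.2%) held 1 locus. Another 985 stretches held 10 or more loci, and 15.2% of all loci were in those. The stretch with most loci was on chromosome 14 (12386087 to 12924233). It was spanned by the widest locus of the table, of 538146 bases with 6.91 FPKM (bounds 5.87 and 7.95 FPKM), which had 271 other loci inside it. The second widest locus, of 391137 bases on chromosome 10 (27794709 to 28185846), had 8.13 FPKM and 53 loci inside it. The third, of 326470 bases on chromosome 12 (42729756 to 43056226), had 6.47 FPKM and none.

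Levels inside and outside other loci differed by width class. At 100 to under 300 bases the median was 22.4 FPKM for 14812 loci inside another and 13.5 FPKM for 15372 that were not. At 300 to under 1000 bases it was 3.53 FPKM against 2.89 FPKM. Under 100 bases the order was opposite, with 702 FPKM for 864 loci inside and 1955 FPKM for 734 others. From 1000 bases it was also lower inside, at 2.67 FPKM against 3.74 FPKM at 1000 to under 3000 bases. The quartiles overlapped in each of these classes. Widths were not matched within a class, although the worth of 1 fragment changes with width there. Over all classes, loci inside another had a median width of 340 bases, against 556 bases for the others. The part of width in these differences was not tested. At 170 positions 2 loci were listed with the same ends. The library kit keeps the strand of the RNA, per the labels, but the table holds no strand, and whether such pairs are transcribed from opposite strands was not tested. The higher level of a pair was 2.34 times the lower at the median, with quartiles of 1.5 and 3.90.

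The loci were then set beside DNA of Srap1 KO cells from the control IgG library, a readout that took no part in placing them. Loci held 13.2% of its 8829315 autosomal reads. The density of reads with mapping quality of at least 30 was 4.04 per kb over loci and 2.80 per kb outside. By width class it was 4.72 under 100 bases and 4.22 at 100 to under 300 bases. From 300 bases upwards it fell with each wider class, through 4.37, 4.32, 4.26 and 4.07 to 3.71. The class median of level was 3.02 FPKM in the first of these classes and 12.4 FPKM in the last. For loci of at least 300 bases the density was 4.14 reads per kb under 1 FPKM and 4.39 at 1 to 2 FPKM. It was 4.20 at 2 to 5 FPKM and 4.02 at 5 to 10 FPKM. It stayed between 3.95 and 3.98 from 10 to 1000 FPKM. Across the 19 autosomes reads per kb ran from 2.57 on chromosome 3 to 3.54 on chromosome 11, the same autosomes that were lowest and highest in loci per Mb. Pearson's correlation of these densities was 0.82 and Spearman's rho 0.60, a description over points that share base composition and the share of sequence that can be aligned. The part of these in the result was not tested.

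The strongest RNA loci were an exception, with dense DNA reads as well. The chromosome 17 locus had 294 reads of quality at least 30 per kb, against 1.00 per kb in the 10 kb on either side. The chromosome 5 locus of 366 bases had 153 per kb against 3.30, from 56 reads. Those on chromosomes 14, 9 and 4 had 65.2, 65.7 and 45.0 per kb against 3.6, 4.75 and 5.6, from 21, 23 and 20 reads. The chromosome 16 locus of 567 bases had 30.0 per kb against 4.20, from 17 reads. In all, 6 of the 10 highest loci had more than 5 times the density of their flanks. The 4 others did not, and the second chromosome 16 locus had 0 reads of this quality. At the 74-base locus on chromosome 10 (11211916 to 11211990), the highest in FPKM, 3 such reads were found, too few to set a density.

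A low mapping quality, here under 30, is given to a read that fits several places in the genome about as well. Such reads made up 11.6% of DNA reads over loci and 21.1% outside. The 95% exact binomial intervals given for smaller classes cover counting error only, and do not cover the spread between loci. Under 100 bases reads of low quality made up 27.7% (24.7% to 30.9%), and in loci under 100 bases with at least 1000 FPKM 36.5% (31.9% to 41.3%). At 100 to under 300 bases and in the 4 classes from 1000 bases they were 7.10% to 10.5%. The class of 300 to under 1000 bases had 22.9%, and loci of at least 300 bases with 100 to 1000 FPKM had 78.8%, but 1 locus gave most of these reads. It lay on chromosome 2 (98502387 to 98503136), 749 bases wide with 102 FPKM, and held 38326 of the 135999 low-quality reads over all loci, or 28.2%. Without it the class of 300 to under 1000 bases had 6.97%. Without it and the next such locus, on chromosome 4 (144981373 to 145165003), loci of at least 300 bases with 100 to 1000 FPKM had 10.5%, and all loci 8.55%. These shares thus rested largely on 1 or 2 loci. Of the 10 highest loci, that of 567 bases on chromosome 16 had 73.8% such reads (61.5% to 84.0%). No source used here says how RNA reads with several places were counted, so levels of loci with such sequence are uncertain.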

How the data were processed

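Per the submitters' processing notes, the tools were Trim Galore 0.3.5, Bowtie 0.12.8, MACS2 2.1.1 and Cufflinks 2.2.1.0 and the build mm9, with no role, order or settings. Per the file headers, the deposited values are FPKM with bounds. The control IgG DIP file deposited by the authors has 1 row per read, with a score for mapping quality. It was taken as mm9, since its reads on chromosome 1 reach base 197195253, past the end of that chromosome in mm10. The members and lists were chosen with earlier results of these data known. Positions are as the files give them.

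Implied fragments are (FPKM divided by the distance to its upper bound over 2) squared, and were whole within 0.02 at 33.4% of loci. Their sum, with the 744 loci under 1 left in, is the only depth given and is not a count of reads. It is too low wherever bounds hold more than counting error, and shares of implied fragments carry the same limit. Reads were placed by their midpoint. Joining, nesting and implied fragments were tested on simulated data. The text names the 10 highest loci of at least 300 bases, the next 5 of at least 1000 bases, the highest of each width class and autosome, the 5 with most fragments and the 3 fullest bins. The lowest, the widest and the other narrow loci, the gaps and the low-quality locus were added after their values were seen. Gene names and marker lists were planned and not analysed. Python 3.11.15, numpy 2.4.6, pandas 2.3.3 and scipy 1.17.1 were used. With 1 sample, nothing was tested.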

Additional observations from a re-analysis of the deposited data

How the results depend on the processing

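The direction of the relation between level and width depended on which loci were taken. Pearson's correlation was -0.23 over all loci, 0.42 over loci of at least 300 bases, -0.22 with a pseudocount of 0.1 or none, and -0.20 with at least 10 implied fragments. The covered share of 10.3% was 10.6% from first to last aligned base, 10.3% up to the last locus, 10.2% with loci of at least 300 bases, 7.47% with at least 5 FPKM, 10.1% with a lower bound above 0 and 11.1% as a sum of widths. The 56.3 loci per Mb were 57.6 from first to last aligned base, 43.4 with loci of at least 300 bases, 26.0 with at least 5 FPKM and 15.0 with loci within 1000 bases joined. Chromosome 11 was highest in all 5 alternatives. The lowest was chromosome 3 except with at least 5 FPKM (chromosome 6) and with loci joined (chromosome 14). The median level of 4.48 FPKM was 3.39 FPKM at 300 bases and wider. The ratio of the median under 100 bases to that at 300 to under 1000 bases, 328, was 369 with at least 10 implied fragments and 946 with at least 20, a limit chosen after seeing the data. It does not compare strength, since 1 implied fragment was worth 61.8 FPKM in the first class and 0.164 FPKM in the second. The limit of 20 kept 365 of 1598 loci in the first and 32186 of 74976 in the second. Of the highest 10 loci, 5 remained with a minimum width of 500 bases, 3 with 1000 bases and 4 when ranked by implied fragments. DNA read density over loci was 1.45 times that outside, and 1.29 times with all reads or with 1 read per start and strand. Of 42 alternatives for the class medians 35 stayed within the counting interval of the median. Some of the 35 could not move, since each class counts the identical second table as 1 alternative. Likewise, a minimum of 1 FPKM takes no locus out of the classes under 300 bases. The 7 that moved all set a minimum of 10 or 20 implied fragments, in classes under 3000 bases. The second deposited table moved no value, being identical. No paired analysis was possible because the knockout is 1 sample and was compared with no group.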
